A study of Mus musculus with 21 samples.

Results

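The products of Ppargc1a, Nrf1, Gabpa, Tfam, Tfb2m, Polrmt, Polg, Twnk, Lrpprc and Slirp decide how much of the mitochondrial genome is copied, transcribed and kept as mRNA. These 10 genes, of 55487 in the count table, were chosen by function: 3 regulators of mitochondrial biogenesis, 2 factors of mitochondrial DNA replication, 3 of transcription and 2 of mRNA stability. All 10 passed the filter on low counts, which left 18146 genes for testing. Hippocampal mRNA was sequenced, 1 library for each mouse, from male wild type C57BL/6 mice of 10 weeks. In the maternal separation (MS) group whole nests were taken from the dam for 4 hr per day on postnatal days 10 to 17, and most of the nesting material was removed from the home cage. The standard rearing (SR) group kept dam and nesting material, and both groups were later caged with same-sex litter mates. The labels gave 9 MS and 12 SR mice, and their animal numbers run in threes. Each run of 3 numbers held 1 rearing condition and is called a set, lettered A, B and C for MS and D, E, F and G for SR. A mouse is named by its set and its place in it. The labels name no nest. The study assigned whole nests to a rearing group, so the mice of a set may well share a litter. Except where sets are named, p-values measured the spread between mice and took the mice as independent.

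Mitochondrial DNA is copied by the polymerase Polg behind the helicase Twnk and transcribed by Polrmt, which needs Tfam and Tfb2m at the promoters. Lrpprc and Slirp bind the finished mRNAs as a complex and keep them from decay. The nuclear factors Nrf1 and Gabpa switch on many of these genes, and the coactivator Ppargc1a (PGC-1α) is known for driving the programme in tissues with a high demand for energy.

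On GRCm38 (GENCODE M21) the regulators lie at chr5:51454250-51567726 on the minus strand (Ppargc1a, ENSMUSG00000029167), chr6:30047988-30153458 on the plus strand (Nrf1, ENSMUSG00000058440) and chr16:84834925-84863779 on the plus strand (Gabpa, ENSMUSG00000008976). Of the transcription factors, Tfam (ENSMUSG00000003923) is at chr10:71225464-71238280 and Polrmt (ENSMUSG00000020329) on the same chromosome at chr10:79736123-79746581, and Tfb2m (ENSMUSG00000026492) is at chr1:179528055-179546267, all on the minus strand. Polg (ENSMUSG00000039176) is at chr7:79446231-79466362 on the minus strand and Twnk (ENSMUSG00000025209) at chr19:45005663-45012762 on the plus strand. Lrpprc (ENSMUSG00000024120) is at chr17:84705247-84790789 on the minus strand and Slirp (ENSMUSG00000021040) at chr12:87443896-87452206 on the plus strand. The values are counts over all exons of a gene.

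Among the 21 libraries, that of mouse A2 in the MS group lay apart, with a score of -27.1 on the first principal component against -11.9 to 12.2 in the others, and it was left out. The study also removed an outlier but does not name it, so it may not be the same library. It had 1991 CPM (counts per 1000000 of the normalized total of the library) of summed striatal markers, against 82.1 to 698 in the others, and 93.1 CPM of dentate granule cell markers against 291 to 624. The 8 MS libraries kept held 17276810 to 24052716 counts and the 12 SR libraries 18368519 to 26450808. No dentate or CA marker was at 0 in any library. In MS, 8 of 8 striatal markers (median log2 fold change 0.56), 6 of 7 markers of GABAergic interneurons (0.067) and 8 of 8 choroid plexus markers (0.90) had higher means, with 0 called. Of the dentate granule cell markers 0 of 6 had a higher mean in MS (median -0.080). The same held for 1 of 6 CA pyramidal markers (-0.049) and 1 of 6 neocortical neuron markers (-0.077), again with 0 called. The summed striatal level ran from 82.1 to 698 CPM in MS and from 88.9 to 428 CPM in SR. That of the choroid plexus ran from 53.1 to 4225 CPM in MS (median 3337) and from 29.1 to 4557 CPM in SR (median 842). In the MS sets A and B it was 3136 to 4225 CPM in the mice kept. In such bulk tissue fewer cells of a type and less RNA per cell cannot be told apart.

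The promoters come first, since Gabpa was the member with the largest difference and its protein, with its partner, binds the letters CCGGAAG. Windows of 300 bases, from 250 before to 50 after each RefSeq transcription start (GRCm38.p6), were at hand for 10 of the 10 genes. Nrf1 and Twnk have 2 windows each and the others 1, so shares of genes and of windows differ in unit. The motif CCGGAAG, read on both strands, lay in the windows of 6 of these 10 genes, and in 8.86% of all 32851 windows. Each is printed here with 11 bases on either side, with the motif in capitals, as CTTCCGG where it lies on the strand opposite to the gene.
Gabpa: gagggtaagtgCTTCCGGgtccctcagct
Tfam: cctgccgcggaCCGGAAGtccgggcttcc
Polrmt: ccctaagagcgCTTCCGGcagtcgcagaa
Polg: gaggacctcacCCGGAAGtccctctgcac
Twnk: ggagagttttgCTTCCGGagtcaccgcga
Slirp: aacagtttggcCCGGAAGcagaactcgaa
The window of Gabpa is chr16:84835020-84835048 on the plus strand, and its motif begins 93 bases before the start. That of Tfam is chr10:71238074-71238102 on the minus strand, with the motif 47 bases before the start. For Polrmt it is chr10:79746607-79746635 on the minus strand, at 43 bases, and for Polg chr7:79466294-79466322 on the minus strand, at 38 bases. Twnk has a pair of motifs, both in 1 of its 2 windows. The nearer is in chr19:45006481-45006509 on the plus strand, 66 bases before the start of that window. Slirp has 3 motifs, and the one shown is in chr12:87443837-87443865 on the plus strand, 48 bases before the start. The start meant here is that of RefSeq. By the GENCODE spans given above, the printed stretches of Gabpa, Tfam, Polg and Twnk lie inside the gene. The windows of Ppargc1a, Nrf1, Tfb2m and Lrpprc held no CCGGAAG. The palindrome that Nrf1 binds was in 0 members' windows and in 0.971% of all windows, and with its middle base left free it was in the window of Polrmt and in 4.60% of all windows. Such a match describes the letters of a window and is no proof of binding.

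Set beside one another per kilobase of exon, the members' mean levels over the 20 mice ran from 9.81 CPM per kilobase for Lrpprc to 0.510 for Slirp. Lrpprc was followed by Polrmt (8.77), Polg (7.84), Tfb2m (7.36), Ppargc1a (6.86), Tfam (6.04), Gabpa (5.09), Twnk (4.10) and Nrf1 (2.16). Neighbours in this order overlapped over the mice down to Twnk. Nrf1, at 1.88 to 2.56, lay below every mouse's value for Twnk, which began at 3.73, and above every value for Slirp, which ended at 0.728. The low level of Slirp rested on 11 to 49 counts per library. Of its 3104 exonic bases, 2914 are shared with exons of Snw1 on the other strand. The library kit keeps the strand of the RNA, but whether the counting used it is not given in the sources used here, and the level of Slirp is therefore uncertain. Exons on opposite strands are also shared by Polg with Fanci (921 bases), by Twnk with Mrpl43 (507 bases) and by Gabpa with Atp5j (397 bases), whose counts are uncertain to that extent.

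To ask whether rearing changed these genes, MS and SR were compared with edgeR's quasi-likelihood test, with p-values adjusted over all 18146 genes. No member was called at an adjusted p under 0.05 (0 of 10), where 0.011% of all genes were called (2 genes). DESeq2, which called 0.775% of the genes it tested (119 genes), and limma-voom (2 genes) also called 0 of the 10. The number of genes called by edgeR rested on single mice: it was 109 without mouse C2, 109 without mouse C3 and 340 without set C, and 0 of the 10 members were called in each of these fits. At an unadjusted p under 0.05 there was 1 member, Gabpa, which was higher in MS, against 6.62% of all genes that were higher and 11.5% in either direction. The members' median log2 fold change was 0.0067 beside 0.00084 over all genes, with 5 higher and 5 lower.

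**Figure D1:**
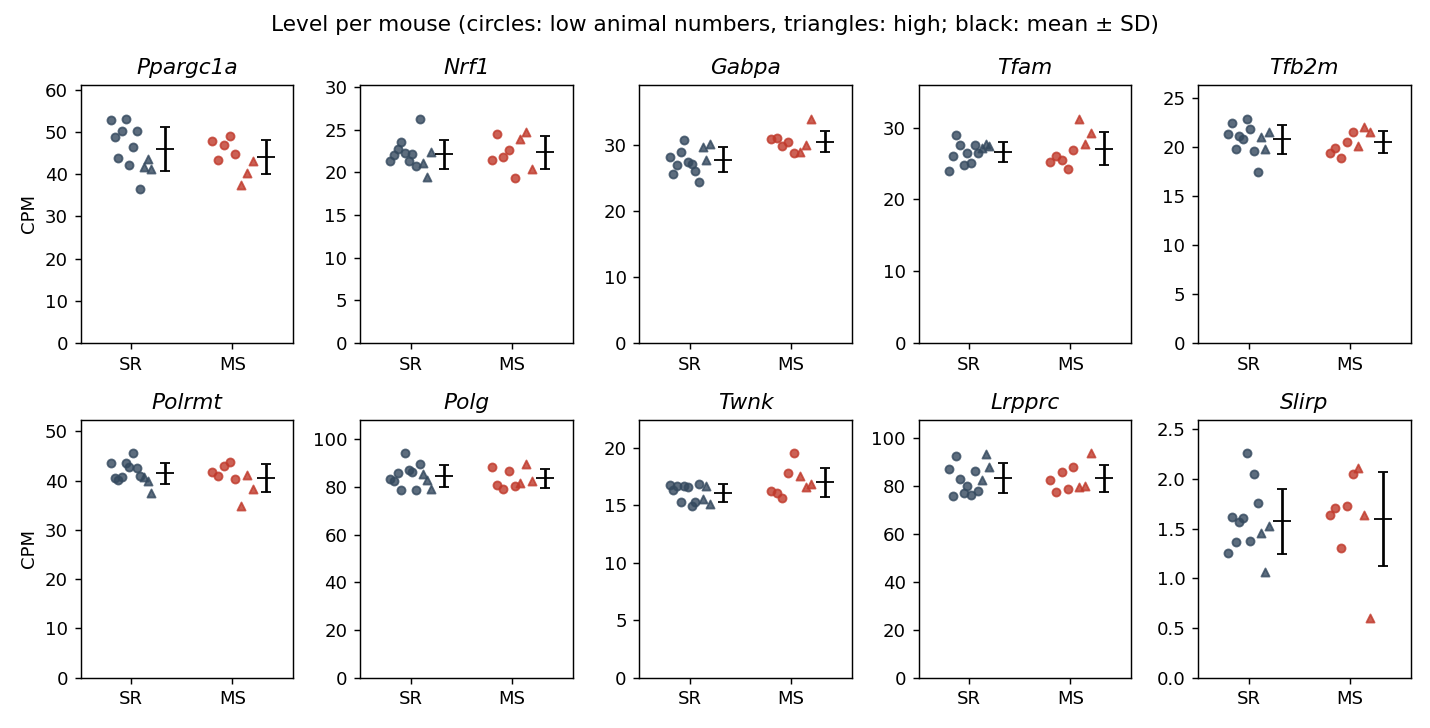
Level of each gene in CPM (vertical axes, from 0) for each of the 12 SR and 8 MS mice, with black bars for mean ± SD and triangles for mice of the high range of animal numbers. The groups overlap in every panel, and for Gabpa 8 of 8 MS mice lie above the SR median.

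Of the regulators, Gabpa, the DNA-binding subunit of the ETS-type factor GABP, differed most. Its level was 28.9, 30.3 and 34.1 CPM in the lowest, median and highest MS mouse, and 24.5, 27.6 and 30.9 CPM in SR. The groups overlapped, yet 8 of 8 MS mice were above the SR median, 8 of 12 SR mice were below every MS mouse and 3 MS mice were above every SR mouse. Means were 30.6 ± 1.64 CPM (SD, n = 8) and 27.8 ± 1.90 CPM (SD, n = 12). This was a log2 fold change of 0.14 (SE 0.0440, 95% interval 0.045 to 0.23), with p = 0.00513 and adjusted p = 0.232 by edgeR.

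By set, the mean level of Gabpa was 31.1, 29.8 and 31.1 CPM in the MS sets A, B and C. In the SR sets D, E, F and G it was 27.0, 29.1, 26.0 and 29.3 CPM. The lowest MS set thus lay above the highest SR set. With 3 MS and 4 SR sets only 35 splits exist, so many genes could separate in this way without any effect of rearing. How many of all genes do was not counted, and the separation is given as a description alone. With counts summed within each set, the log2 fold change of Gabpa was 0.14 (edgeR p = 0.0281, adjusted p = 0.563). Mouse C3 of MS had the highest Gabpa, and without its library the log2 fold change was 0.11 (adjusted p = 0.282 by edgeR). Atp5j, a subunit of ATP synthase whose gene shares 397 exonic bases with Gabpa head to head, had a log2 fold change of 0.12 (SE 0.0533, edgeR p = 0.0365, adjusted p = 0.396). Reads of the shared bases could have been counted for either gene, and their part in the difference of Gabpa was not tested. Within groups the levels of Gabpa and Atp5j went in opposite directions (r = -0.45 over 20 mice, as a description). Summed markers of GABAergic interneurons (r = 0.51) and of endothelium (r = 0.49) went with Gabpa over the mice, and those of CA pyramidal cells went against it (r = -0.45). Their part in the difference was not tested.

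Ppargc1a varied more between mice than any other member but Slirp. It was at 37.3, 44.1 and 49.2 CPM in the lowest, median and highest MS mouse and at 36.6, 45.2 and 53.2 CPM in SR, so the MS range lay within that of SR. The log2 fold change was -0.058 (SE 0.0650, 95% interval -0.19 to 0.076, edgeR adjusted p = 0.781). Nrf1, which binds promoters of respiratory genes, was at 19.3, 22.2 and 24.8 CPM in MS and at 19.4, 22.1 and 26.3 CPM in SR, with a log2 fold change of 0.016 (95% interval -0.095 to 0.13, edgeR adjusted p = 0.942). The groups could not be told apart in either gene, and their intervals leave room for changes of at most about 0.19 in size.

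**Figure D2:**
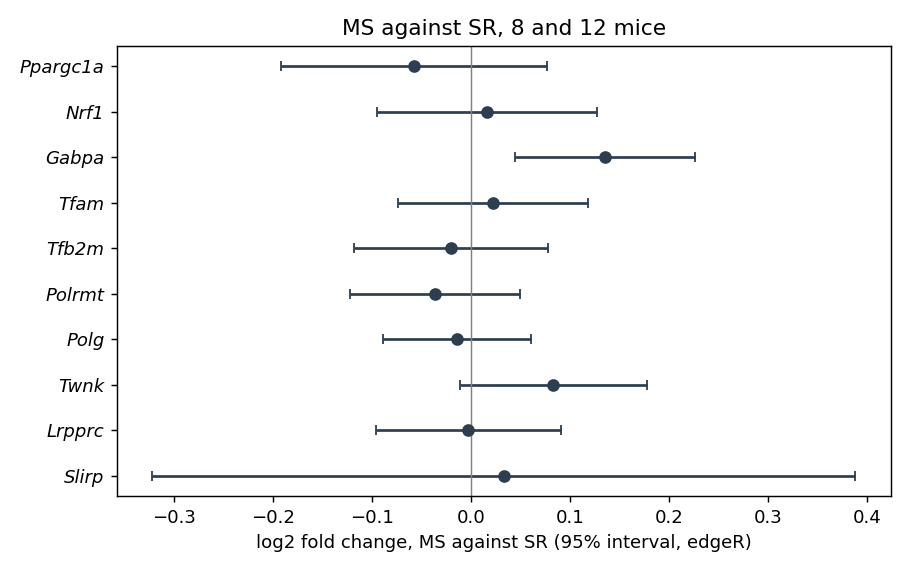
Log2 fold change of each gene, MS (8 mice) against SR (12 mice), with 95% intervals from edgeR on the horizontal axis. The interval of Gabpa, 0.045 to 0.23, is the only one that lies wholly on 1 side of 0, and that of Slirp is the widest.

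The transcription factors showed no difference beyond the spread between mice. Tfam, which packs mitochondrial DNA and opens its promoters, was at 24.3, 26.5 and 31.3 CPM in MS and at 24.0, 26.8 and 29.0 CPM in SR (log2 fold change 0.022, SE 0.0466, edgeR adjusted p = 0.900). Tfb2m, which melts the promoter for the polymerase, was at 18.9, 20.3 and 22.0 CPM in MS and at 17.4, 21.03 and 22.9 CPM in SR (log2 fold change -0.020, SE 0.0477, edgeR adjusted p = 0.914). Polrmt, the RNA polymerase itself, was at 34.8, 41.0 and 43.8 CPM in MS and at 37.4, 40.8 and 45.5 CPM in SR (log2 fold change -0.037, SE 0.0416, edgeR adjusted p = 0.783). In all 3 genes the groups overlapped widely. The highest Tfam and the lowest Polrmt were both in mouse C1 of MS.

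Of the replication factors, Twnk had the next largest difference in size. It was at 15.6, 16.7 and 19.5 CPM in MS and at 15.0, 16.5 and 16.8 CPM in SR, and 3 MS mice lay above every SR mouse while 5 SR mice lay below every MS mouse. Its log2 fold change was 0.083 (SE 0.0458, 95% interval -0.011 to 0.18, edgeR p = 0.0820, adjusted p = 0.502). Without mouse B3, the highest, it was 0.049 (edgeR p = 0.278, adjusted p = 0.732). Polg, the catalytic subunit of the DNA polymerase, was at 79.2, 82.1 and 89.7 CPM in MS and at 78.9, 84.4 and 94.2 CPM in SR, with the narrowest interval of all members (log2 fold change -0.014, 95% interval -0.089 to 0.061, edgeR adjusted p = 0.922).

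The mRNA stability factors did not differ detectably either. Lrpprc was at 77.7, 81.3 and 93.8 CPM in MS and at 76.1, 82.8 and 93.4 CPM in SR (log2 fold change -0.0026, 95% interval -0.096 to 0.091, edgeR adjusted p = 0.991). Slirp was at 0.603, 1.67 and 2.11 CPM in MS and at 1.06, 1.55 and 2.26 CPM in SR (log2 fold change 0.033, 95% interval -0.32 to 0.39, edgeR adjusted p = 0.964). Its interval is the widest of all members and its counts are the fewest, and its lowest mouse, C3 of MS, is the mouse with the highest Gabpa. In SR the coefficient of variation of the members had a median of 6.97%, beside 7.34% for the 5197 genes of a like level and 11.0% for all genes tested. In the library left out, Lrpprc was at 64.7 CPM and Tfam at 22.6 CPM, both below all 20 other mice.

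The animal numbers fall into a low range (5 MS and 9 SR mice) and a high range (3 MS and 3 SR mice), of which the labels do not say what they stand for. The log2 fold change of Gabpa was 0.15 in the low range (edgeR adjusted p = 0.186) and 0.085 in the high range (adjusted p = 0.854). The difference between the ranges was not called for any of the 10 members, with edgeR adjusted p of 0.654 to 0.964. Sets C and G, the high range, had the lowest mean levels of Ppargc1a (40.3 and 42.1 CPM, against 44.5 to 48.5 CPM in the other 5 sets) and of Polrmt (38.07 and 39.4 CPM, against 41.3 to 43.0). They had the highest mean levels of Tfam (29.4 and 27.4 CPM, against 25.6 to 26.4). Values by range are therefore given beside the pooled ones for the summed mitochondrial mRNAs and for the relations of Gabpa, Tfam, Polrmt and Ppargc1a, and the other values pool the ranges.

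Wider lists of 83 genes around the same steps were then examined, with 0 called by edgeR at an adjusted p under 0.05 and 0 by DESeq2. At an unadjusted p under 0.05 there were 4 higher and 2 lower in MS, which is 7.23% of the 83 beside 11.5% of all genes, and their median log2 fold change was 0.013. Of the 18 biogenesis regulators 1 was higher and 1 lower at that unadjusted level, which is 11.1% beside the same 11.5%. Esrra, a nuclear receptor that works with PGC-1α, was at 52.4 ± 3.34 CPM in MS (SD, n = 8) and 47.1 ± 2.88 CPM in SR (SD, n = 12). Its log2 fold change was 0.15 (SE 0.0417, edgeR p = 0.00115, adjusted p = 0.161). Without mouse C3 it was called by edgeR, at an adjusted p of 0.0484, as 1 of 109 genes called in that fit. Ncor1, a corepressor, had a log2 fold change of -0.10 (SE 0.0328, edgeR p = 0.00450, adjusted p = 0.226), and without mouse C2 it was called, at an adjusted p of 0.0449, again as 1 of 109 genes. Creb1 and Nrip1, with the next smallest p in either direction, had log2 fold changes of 0.072 and -0.078.

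In the replication list 1 of 16 genes was higher at the unadjusted level (6.25%, where 6.62% of all genes were higher). Lower means were found in 12 of the 16, and in 9010 of all 18146 genes. Mgme1, a nuclease that trims the ends of replicating mitochondrial DNA, had a log2 fold change of 0.20 (SE 0.0799, edgeR p = 0.0171, adjusted p = 0.323), and the nuclease Endog one of 0.22 (adjusted p = 0.433). Primpol, which can restart stalled copying, and Tk2, which supplies thymidine nucleotides, had log2 fold changes of -0.15 and -0.061 (edgeR adjusted p = 0.667 and 0.623). The transcription list, with 9 genes, had 0 at the unadjusted level, beside 11.5% of all genes. Those with the smallest p were Mrpl12 (0.090) and the nucleotide carrier Slc25a33 (0.13) on the higher side, and Tfb1m (-0.10) and Mterf1b (-0.028) on the lower, on the log2 scale.

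Of 28 genes of mitochondrial RNA processing and stability, 1 was higher at the unadjusted level (3.57%, where 6.62% of all genes were higher). This was Fastkd2, an RNA-binding protein of the mitochondrial granules, at 17.7 ± 0.870 CPM in MS (SD, n = 8) and 15.6 ± 1.44 CPM in SR (SD, n = 12). Its log2 fold change was 0.19 (SE 0.0552, edgeR p = 0.00230, adjusted p = 0.189). Its relative Fastkd3 had a log2 fold change of 0.12, and Pnpt1, which degrades RNA, and Elac2, which trims tRNA ends, had -0.12 and -0.057. Among 12 translation factors 16.7% passed the unadjusted level in either direction, beside 11.5% of all genes. There 1 was higher, the elongation factor Tsfm (log2 fold change 0.19, SE 0.0642, edgeR p = 0.00661, adjusted p = 0.247), and 1 lower, the initiation factor Mtif2 (-0.082, SE 0.0353, edgeR p = 0.0290, adjusted p = 0.371). Mrrf and Gfm2, which recycle the ribosome, had log2 fold changes of 0.11 and -0.070.

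The output of the mitochondrial genome was taken as the summed level of its 13 mRNAs. In MS the lowest, median and highest mouse had 35635, 43111 and 52046 CPM, and in SR 45114, 47398 and 50476 CPM. Of the 8 MS mice 6 lay below every SR mouse, 1 lay within the SR range and 1, mouse C2, lay above it, so that the groups overlapped through mice C1 and C2. Means were 43369 ± 4695 CPM (SD, n = 8) and 47284 ± 1739 CPM (SD, n = 12). On the log2 scale the difference was -0.13, or 0.913-fold, with p = 0.00959 by an exact two-sided permutation test over 125970 splits. The mRNAs took 3.66 to 5.02% of all counts in MS and 4.49 to 4.97% in SR.

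The size of this difference depended on which mice were compared. With each of the 20 libraries left out in turn it ran from -0.17 to -0.092, with exact permutation p of 0.000119 to 0.0316. Allowing for a shift between the low and the high range, it was -0.14 (permutation p = 0.00774 over 40040 relabellings). With mouse A2, whose sum was 57544 CPM on the common scale of all 21 libraries, it was -0.085 (exact permutation p = 0.179). In the low range it was -0.21, with an exact permutation p of 0.00050, the smallest that 2002 splits can give. In the high range it was 0.0063 (exact permutation p = 1.00, where 0.10 is the smallest possible). These splits moved mice singly, while the low range held only the MS sets A and B and the SR sets D, E and F. The high range held only sets C and G, and within a range the sets were not tested as units. The difference between the ranges was 0.21, with an exact permutation p of 0.0600 from relabelling mice within each range. That relabelling assumes no effect of rearing in either range, so its p does not test whether the 2 ranges differ equally. Over the 7 set means the difference between MS and SR was -0.15 (exact permutation p = 0.0571 over 35 splits). Summed choroid plexus markers went against the sum over the mice (r = -0.47), and CA pyramidal markers went with it (r = 0.47); their part in it was not tested.

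**Figure D3:**
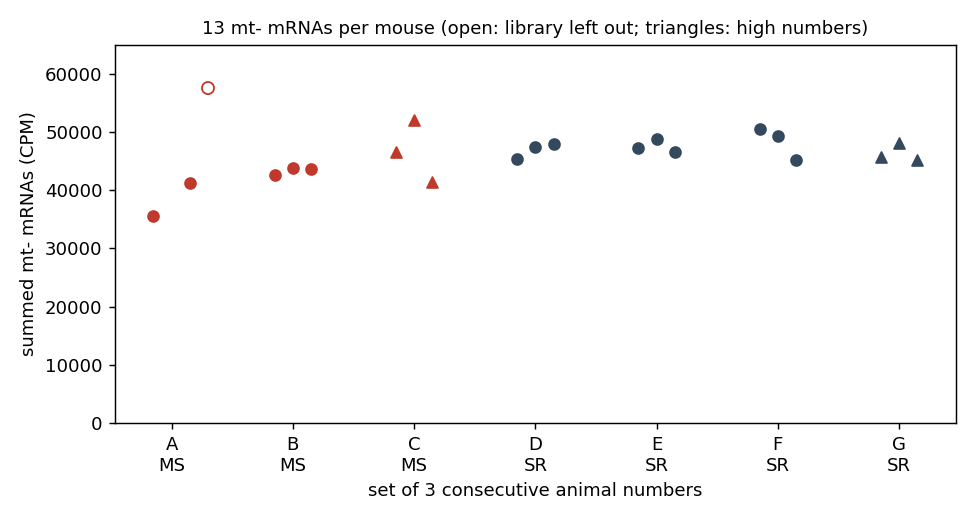
Summed level of the 13 mt- mRNAs in CPM (vertical axis, from 0) for each mouse, by set of consecutive animal numbers, with MS in red, SR in dark blue and triangles for the high range. Sets A and B lie below all SR mice apart from the open circle, the library left out, which is the highest of all at 57544 CPM.

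Of the mRNAs taken singly, 12 of the 13 mt- mRNAs had lower means in MS, with a median log2 fold change of -0.15, and edgeR called 0 of them, with 7 lower at an unadjusted p under 0.05 (53.8%, where 4.92% of all genes were lower). DESeq2 called 3, where it called 0.775% of all genes it tested. With all 21 libraries edgeR gave 3 at an unadjusted p under 0.05. The 13 mRNAs come from 1 genome and may vary together, so such counts need not stand for separate results. The mRNA read from the other strand of the genome, mt-Nd6, was at 711, 852 and 1121 CPM in MS and at 928, 1032 and 1180 CPM in SR, and the groups overlapped. Its log2 fold change was -0.28 (SE 0.0703, edgeR p = 0.000570, adjusted p = 0.134). Whether the counting used the strand is not given, so the counts of mt-Nd6 may hold reads of the opposite strand. Without mouse C2 edgeR called 5 of the 13 among 109 genes called in all, without mouse C1 it called 1 (mt-Nd6) among 3, and without set C it called 7 among 340.

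To relate the machinery to its output, each member's log2 CPM was set against the log2 sum over the 20 mice, in 10 relations. Pearson's r ran from -0.47 to 0.30 with a median of 0.11, beside a median of 0.0030 and a span from -0.46 to 0.48 for the middle 90% of 18121 nuclear genes. Only Gabpa passed an unadjusted permutation p of 0.05, with r = -0.47 (p = 0.0364) and Spearman's rho = -0.52 (p = 0.0210). Of the nuclear genes 4.25% had a lower r. Without mice A1 and C2, the farthest from the median sum, r was -0.60, and all 21 libraries gave -0.43 (permutation p = 0.0529). It also missed that threshold without any 1 of the mice F1, F2, A3 and C3, with r of -0.45, -0.44, -0.44 and -0.41 and permutation p of 0.0553, 0.0624, 0.0640 and 0.0813.

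**Figure D4:**
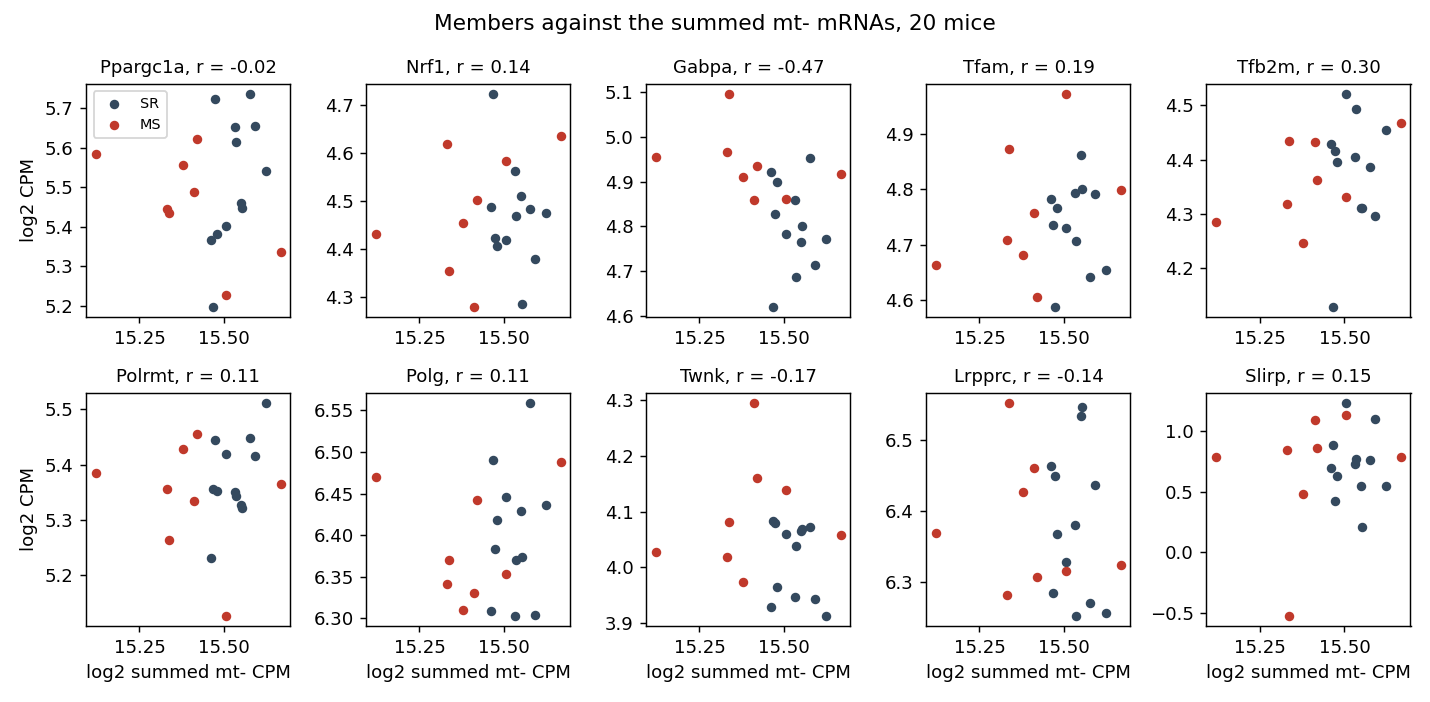
Log2 CPM of each gene (vertical axes) against the log2 summed CPM of the 13 mt- mRNAs (horizontal axes) for 12 SR and 8 MS mice. The r of each panel stands above it, and only in the panel of Gabpa does it lie below -0.2, with MS mice to the upper left.

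The relation of Gabpa joined a difference between the groups in both measures. Centred on group it was r = -0.21 (permutation p = 0.373). It was -0.38 within the 8 MS mice (exact permutation p = 0.334) and -0.093 within the 12 SR mice (permutation p = 0.772). By range it was -0.54 in the 14 mice of the low range (permutation p = 0.0407) and -0.66 in the 6 mice of the high range (exact permutation p = 0.136). With mt-Nd6 alone, whose counts carry the limit given above, the r of Gabpa was -0.69, as a description.

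None of the transcription factors stood out. Tfb2m had r = 0.30 (permutation p = 0.191), Tfam 0.19 (p = 0.426) and Polrmt 0.11 (p = 0.62). Lrpprc and Slirp, which act on these very mRNAs, had r = -0.14 (permutation p = 0.559) and 0.15 (p = 0.494), and Twnk and Polg had -0.17 (p = 0.470) and 0.11 (p = 0.631). For Ppargc1a the pooled r of -0.021 hid opposite values, -0.61 within MS (exact permutation p = 0.108) and 0.49 within SR (permutation p = 0.110); the difference between them was not tested. In an edgeR fit of the slope on the sum, with rearing group as a term, 0 of the 10 members were called, at adjusted p of 0.767 to 0.998, and 0 passed an unadjusted p of 0.05, beside 0.0221% and 6.56% of nuclear genes.

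The members did not move as a block. Over the 45 pairs, r of group-centred log2 CPM had a median of -0.037, and 20 pairs lay above 0. The outermost pair, singled out after its values were seen and thus given without a test, was that of Tfam and Polrmt, the packaging factor and the polymerase of the same initiation complex, with r = -0.83. Of the 18145 genes other than Tfam, 4 (0.0220%), with Polrmt itself among them, had an r with Tfam at least as low as that of Polrmt. This share takes no account of the choice of 1 pair out of 45. Pooled over groups r was -0.83 and Spearman's rho -0.81, and without the mice farthest from the median Tfam r was -0.73. It was -0.95 within MS and -0.68 within SR, -0.69 in the low range and -0.82 in the high range. With each library left out in turn it ran from -0.86 to -0.74.

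Ppargc1a completed the pattern, rising with Polrmt (group-centred r = 0.61) and falling with Tfam (r = -0.61) from mouse to mouse. More genes were as extreme here. An r with Ppargc1a at least as high as that of Polrmt was found in 6.35% of genes, Polrmt included. One at least as low as that of Tfam was found in 4.36%, Tfam included. Within MS the r of Ppargc1a was 0.85 with Polrmt and -0.91 with Tfam, and within SR it was 0.48 and -0.44. With the groups pooled it was 0.39 and -0.38 in the low range and 0.62 and -0.62 in the high range. All 21 libraries gave 0.54 and -0.41. Transcript GC content differs between the 3 genes (45.5% for Ppargc1a, 44.4% for Tfam and 60.2% for Polrmt), and libraries differed in how far their values leaned towards GC-rich genes. With that trend taken out of all 3 and the groups pooled, r was -0.82 for Tfam with Polrmt, 0.75 for Ppargc1a with Polrmt and -0.75 for Ppargc1a with Tfam. The makeup of the tissue moved with them too. Ppargc1a had r = -0.79 with summed dentate granule cell markers and 0.74 with neocortical neuron markers, Tfam had 0.55 and -0.58, and Polrmt -0.40 and 0.42, as a description over the 20 mice. How much of the pattern this makes up was not tested.

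**Figure D5:**
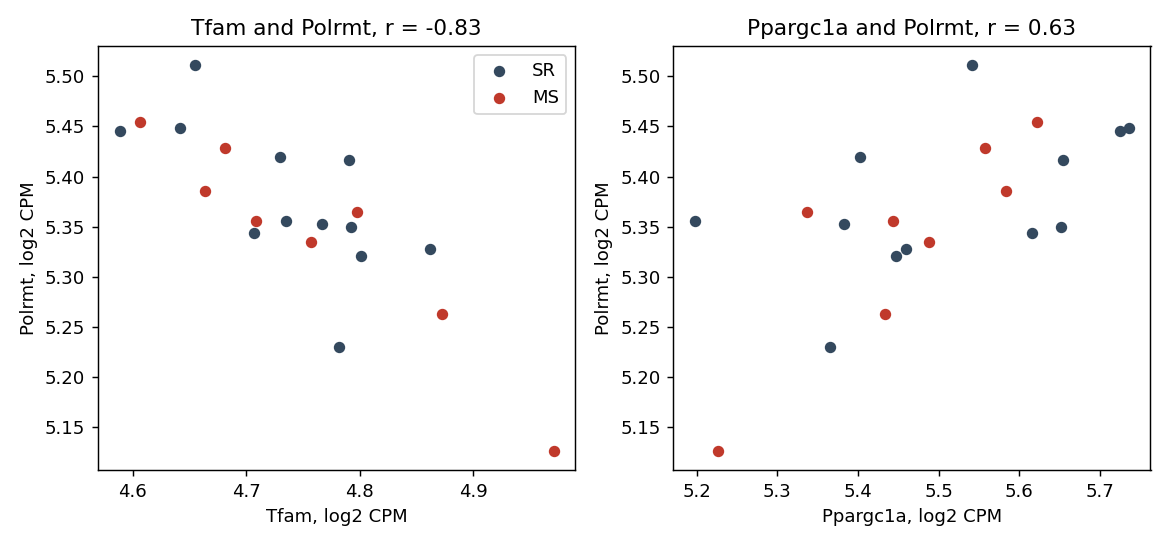
Log2 CPM of Polrmt (vertical axes) against that of Tfam (left) and of Ppargc1a (right) in 12 SR and 8 MS mice. Polrmt falls as Tfam rises (r = -0.83) and rises with Ppargc1a (r = 0.63), and the mouse at the lower edge of both panels is C1 of MS.

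The partners Lrpprc and Slirp, whose proteins stabilise each other, went in opposite directions in mRNA (group-centred r = -0.55). This pair rested on few mice, since r was -0.21 without the mice farthest from the median Lrpprc, and on the few counts of Slirp. Lrpprc itself had r = -0.58 with the GC trend of the libraries. Nrf1 and Lrpprc had r = -0.59. For Gabpa, the members with a CCGGAAG in their window had r = -0.058 (Tfam), -0.037 (Polrmt), 0.045 (Polg), -0.29 (Twnk) and -0.51 (Slirp), and those without it had 0.26 (Ppargc1a), -0.25 (Nrf1), 0.35 (Tfb2m) and 0.26 (Lrpprc).

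Among all genes tested, those most like each member over the mice, by group-centred Pearson's r, were Cxadr for Ppargc1a (0.91), 9430025C20Rik for Nrf1 (0.76), Gm49125 for Gabpa (0.79) and Eif2b1, a subunit of a translation initiation factor, for Tfam (0.86). Slc1a4, an amino acid transporter, was most like Tfb2m (0.78). The transcription factor Zbtb16 was most like Polrmt (0.85) and the clock gene Per3 most like Polg (0.82). Gm3248 was most like Twnk (0.66). Hspd1, the mitochondrial chaperonin, was most like Lrpprc (0.82), and Usmg5, a small subunit of ATP synthase, most like Slirp (0.90). As the highest of 18145 values each, these are descriptions.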

How the data were processed

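Members and lists were chosen with earlier results of these data known. Poly-A libraries (NEBNext Ultra II Directional) were sequenced on a NovaSeq6000; reads were aligned by the authors with STAR 2.7.3a (GRCm38) and counted with featureCounts, and the authors deposited 1 table of raw counts, not normalized. Columns of no sample numbered 0. Symbols and exonic lengths came from GENCODE M21 and promoter windows from RefSeq. Samples were grouped by the treatment in their labels.

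Counts were filtered with filterByExpr (minimum count 10), TMM-normalized and tested with the quasi-likelihood test of edgeR 4.0.16 (robust; R 4.3.3), with Benjamini-Hochberg adjustment over all genes tested and a threshold of 0.05. The MS library with the most extreme score on the first component (variance-stabilised counts, DESeq2 1.42.0, 500 genes) was left out. The SE of a log2 fold change was taken from its quasi-likelihood F (absolute value over root F). Log2 CPM used a prior count of 2. Relations over mice were tested with 100000 permutations, or all orders at up to 8 mice, and the summed mt- mRNAs with all splits; all tests were two-sided. A library's GC or length trend is the Spearman correlation of its log2 CPM, centred per gene for GC, with transcript GC percent or exonic length over genes; 18102 genes had a GC value. No pair of libraries agreed within counting noise (closest pair, chi-square of 3.58 per degree of freedom). Alternatives were all 21 libraries, DESeq2's test and size factors, no filter, normalization on nuclear genes, the range of animal numbers, the length trend or the GC trend (added after seeing the data) as a term, sums or means per set, limma-voom (limma 3.58.1) with the set as a random block, group- or set-centred values, and each library and set left out. The edgeR fit was tested on simulated data. Named genes were the members, the summed mt- mRNAs and mt-Nd6, the 2 genes with the smallest p in each direction of each wider list, and the gene most like each member. Genes that share exons with a member were named outside this rule. Counts carry counting error, largest for Slirp.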

Additional observations from a re-analysis of the deposited data

Results flagged for a closer look

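Within the 8 MS mice, Gabpa in mouse C3 (34.1 CPM) lay apart from the next highest mouse (31.2 CPM): the gap was 0.561 of the whole range, above Dixon's 95% critical value for 8 samples. Chance gives such a gap in about 1 in 20 groups, and the 10 members and the summed mt- mRNAs were examined in this way. Mouse C3 also had the lowest Slirp, at 0.603 CPM. Without this mouse the log2 fold change of Gabpa was 0.11 by edgeR (p = 0.0180, adjusted p = 0.282).

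The library left out, MS A2, had the highest summed mt- mRNAs of all 21 libraries, 57544 CPM against 35630 to 52040 CPM in the others on the same scale, and so lay above every SR library. Its levels of the members lay within the range of the other mice except for Lrpprc and Tfam, which were the lowest of all.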

How the results depend on the processing

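No member was called under any of the 37 alternatives to the edgeR fit, and the log2 fold change of Gabpa stayed between 0.10 and 0.16, with adjusted p of 0.127 to 0.563. Those of Gabpa, Twnk and Tfb2m kept their sign, with 0.049 to 0.11 for Twnk when libraries or sets were left out. No paired analysis was possible because the labels join no MS mouse to an SR mouse. For members near 0 the sign turned as follows, and the cause was not tested. With the length trend as a term the log2 fold change was -0.012 for Nrf1, 0.019 for Lrpprc and -0.086 for Slirp, and with the GC trend -0.011, 0.023 and -0.0068. With all 21 libraries it was -0.0052 for Tfam and 0.0018 for Polg. Leaving out libraries or sets gave -0.12 to 0.016 for Ppargc1a, -0.013 to 0.056 for Nrf1, -0.056 to 0.066 for Tfam, -0.078 to 0.013 for Polrmt, -0.030 to 0.0010 for Polg, -0.031 to 0.020 for Lrpprc and -0.038 to 0.15 for Slirp.

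The number of genes called was 0 to 2 in the wider lists and 0 to 7 of the mt- mRNAs when libraries or sets were left out, and DESeq2 called 3 mt- mRNAs. Without set C, the genes called in the wider lists were Esrra (adjusted p = 0.0196) and Ncor1 (adjusted p = 0.0134). The summed mt- mRNAs differed by -0.085 with all 21 libraries, by -0.15 over set means and by 0.0063 in the high range. They differed by -0.14 when a shift between the ranges was allowed for, and by -0.17 to -0.092 with each library left out.

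Members with a permutation p under 0.05 for their relation to the sum numbered 0 with all 21 libraries, centred on group or set, within MS, within SR and in the high range, and 0 to 1 with each library left out, against 1 (Gabpa) as reported. Signs of r turned for Ppargc1a (0.49 within SR, 0.065 centred on set, 0.14 in the low range, 0.25 without the 2 farthest mice, -0.10 to 0.10 with libraries left out) and Nrf1 (-0.28 within SR, -0.054 without the 2 farthest mice). They turned for Tfam (-0.13 with all 21 libraries, -0.014 within SR, -0.036 centred on set, -0.23 in the high range), Tfb2m (-0.011 in the high range) and Polrmt (-0.0072 centred on group, -0.22 within MS, -0.0038 to 0.21 with libraries left out). Lastly, they turned for Twnk (0.10 centred on group, 0.23 within MS, 0.10 in the high range) and Slirp (-0.038 within SR, -0.032 in the low range, -0.075 to 0.26 with libraries left out). Slirp rests on 11 to 49 counts per library.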
